A study of Mus musculus with 250 samples.

Results

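The genes described here are 35 genes of B cell identity and of the B cell antigen receptor, followed through 5 whole tissues of mice with Her2/Neu-driven breast tumors and of their controls. They were chosen by name, as genes that mark the B lineage or act in its receptor, and each was read from probe sets annotated to that single gene symbol. Of the 35, 33 were measured among 18193 genes in all. No value is given for Ighd and Fcrl5, which had no probe set of that single symbol.

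Each tumor-bearing mouse carried both MMTV-rtTA and TetO-NeuNT, a pair of transgenes in which the MMTV promoter drives the doxycycline-dependent activator and thereby the activated Neu oncogene, mainly in mammary epithelium. Control mice were littermates that carried TetO-NeuNT alone and hence had no activator. Both groups were female FVB mice, and both drank doxycycline (2 mg/mL in 5% sucrose) from 8 weeks of age. Tissue of both mice of a pair was taken once the tumor measured 1 cm. Each tissue (breast, liver, spleen, blood cells without plasma, thymus) had 25 arrays of tumor-bearing mice and 25 of control mice, joined into 25 pairs by the labels, which name for every mouse its partner of the same age and cage. The breast samples of tumor-bearing mice are labelled as tumor, taken with the whole tissue.

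B cells recognise antigen through surface immunoglobulin, IgM (heavy chain gene Ighm) or IgD, which cannot signal alone and is paired with the chains encoded by Cd79a and Cd79b. Signals pass through the kinases Blk and Btk, the adaptor Blnk and the phospholipase Plcg2, and are set by coreceptors such as Cr2 and by inhibitory receptors such as Cd22, Cd72 and Siglecg. Survival of mature B cells depends on the BAFF receptor (Tnfrsf13c), and the lineage is specified by Ebf1 and Pax5, with Pou2f2 and its coactivator Pou2af1 acting on octamer motifs of immunoglobulin and other B cell genes. Spleen is rich in follicular and marginal zone B cells, whereas liver and thymus normally hold few.

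Promoter sequences are shown for the members whose 250 bases upstream of a RefSeq start hold the motif of a transcription factor that is itself a member. The octamer ATGCAAAT (read on both strands) is bound by Pou2f2, and a core of the Ebf1 site is TCCC followed by any 2 bases and GGGA (a palindrome, so both strands are covered). The motifs do not overlap each other in the windows shown. Of the members, 28 had an entry among the RefSeq starts on GRCm38.p6. The octamer was found upstream of Blnk and Vpreb3, in 5.71% of the members' 35 starts against 1.6% of all 32851 starts. The Ebf1 core was found upstream of Cd22, in 2.86% of the members' starts against 0.779% of all starts. The motif is in capitals in each sequence, which runs 5′ to 3′ on the strand of the gene. The Vpreb3 window is chr10:75948050-75948299 on the plus strand, the Blnk window is chr19:40994222-40994471 on the minus strand, and the Cd22 window is chr7:30879029-30879278 on the minus strand.
Vpreb3: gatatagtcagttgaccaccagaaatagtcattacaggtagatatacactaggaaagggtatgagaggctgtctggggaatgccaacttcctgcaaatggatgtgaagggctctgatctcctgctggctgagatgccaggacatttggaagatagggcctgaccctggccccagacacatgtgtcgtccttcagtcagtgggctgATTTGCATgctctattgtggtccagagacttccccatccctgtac
Blnk: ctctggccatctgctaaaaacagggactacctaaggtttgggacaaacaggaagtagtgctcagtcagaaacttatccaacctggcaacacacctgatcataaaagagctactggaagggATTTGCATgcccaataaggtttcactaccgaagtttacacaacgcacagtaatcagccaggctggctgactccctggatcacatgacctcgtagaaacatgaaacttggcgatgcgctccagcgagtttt
Cd22: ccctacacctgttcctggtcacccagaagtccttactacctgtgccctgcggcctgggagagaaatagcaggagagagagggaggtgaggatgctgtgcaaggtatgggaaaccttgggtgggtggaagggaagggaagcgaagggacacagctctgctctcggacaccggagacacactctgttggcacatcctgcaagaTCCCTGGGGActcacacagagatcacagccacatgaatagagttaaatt
In Vpreb3 and Blnk the capitals show the octamer as it reads on the opposite strand. These matches describe letters in a window and say nothing of whether a factor was bound.

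All levels below are log2 of the deposited probe set intensity. Array medians differ between tissues as if each had been normalized apart, and probe sets differ in their response. The level of a gene is therefore compared only between mice within 1 tissue and 1 probe set. Summed intensities of a gene list are compared between groups within 1 tissue, and bright probe sets weigh most in them. Members are called dim by the median level of all genes in a tissue, which is only a rough guide. Changes are log2 differences, tumor-bearing minus control, with the SE from limma over pairs. A gene was called higher or lower at an adjusted p under 0.05, from limma with the pair as a block, adjusted by Benjamini-Hochberg across the 18193 genes of a tissue.

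Before the results, some arrays stood apart. By their correlation with the other arrays of their tissue, or because another tissue's median profile was closer than their own, 17 arrays were set aside in a second fit that dropped their pairs. It kept 24 breast, 20 liver, 23 spleen, 21 blood and 22 thymus pairs, and it was added after the data had been seen. In spleen, the arrays labelled as controls of pairs 15 and 20 were closest to breast, with Cd79a at 6.24 and 6.10, and the array labelled tumor-bearing of pair 15 was closest to thymus, with Cd79a at 9.27. In thymus, control arrays 4 and 7 were closest to breast and to spleen. Counts are given for both fits; the second is called the fit without the arrays that stood apart.

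**Figure D1:**
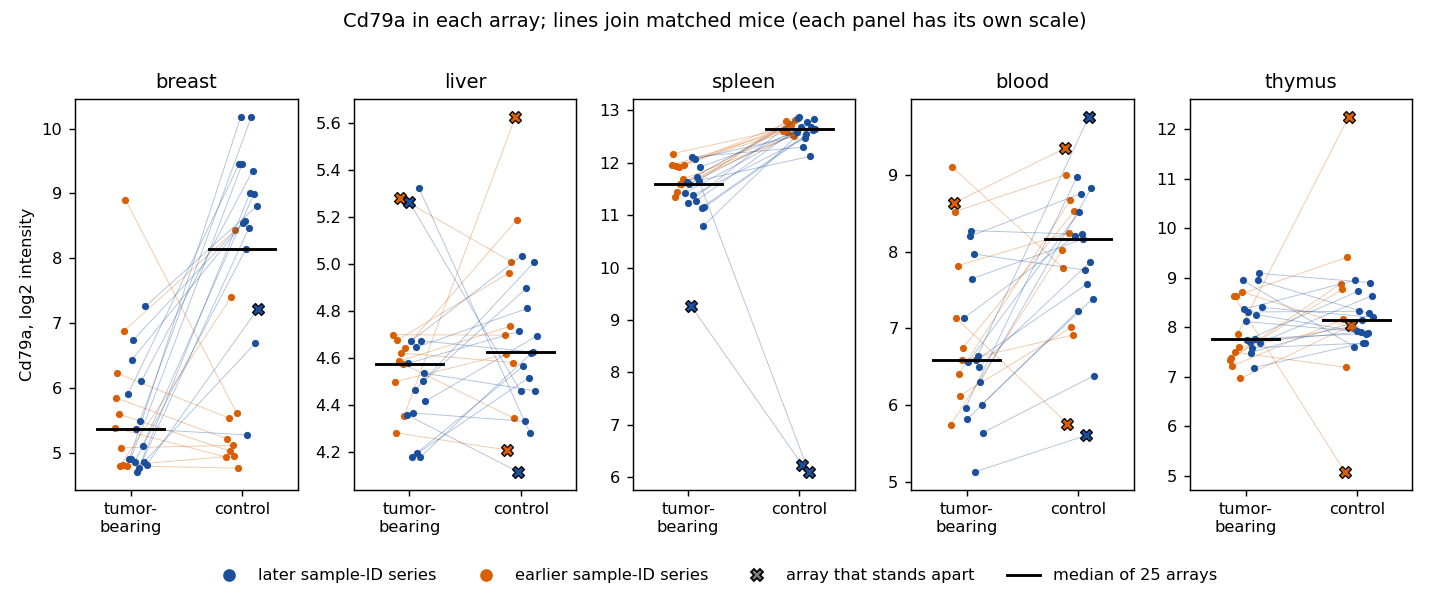
Cd79a on each of the 250 arrays (vertical axis, log2 intensity, a scale of its own in each tissue), tumor-bearing left of control, with lines joining matched mice, color for the sample-ID series, crosses for arrays that stood apart and bars for medians. In spleen every tumor-bearing array lay below its partner except in the pairs that hold crosses, and in breast most control arrays of the later series lay above the tumor-bearing arrays.

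Across the tissues, many members were lower in tumor-bearing mice in breast, spleen and blood, while they showed no called change in thymus, and in liver held a few that were higher. In breast 1 member was called higher and 26 lower, against 30.0% of all genes called higher and 32.3% called lower. In liver 4 were higher and 2 lower (all genes 7.89% and 2.28%). In spleen 15 were lower and none higher (18.3% and 22.4%). Among blood cells 25 were lower and none higher (4.27% and 8.66%). In thymus limma called none, with 0 members at an unadjusted p under 0.05 (all genes 0.011% higher and 0.0% lower).

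In the fit without the arrays that stood apart, the counts were 2 higher and 26 lower in breast (31.0% and 34.8% of all genes), 8 higher and 3 lower in liver (18.6% and 18.9%), and 0 higher and 26 lower in blood (10.2% and 11.9%). In spleen all 33 measured members were lower by the probe set used for each (26.6% of all genes lower, 29.5% higher). For Ighm, 5 of its 11 probe sets were instead higher there. In thymus none was called, and 2 had an unadjusted p under 0.05 (0.0824% of all genes higher, 0.0% lower). In that fit the median change of the 33 members was -0.98 for breast, -0.75 for spleen and -0.80 for blood, while it was 0.00 for liver and -0.05 for thymus; the median of all genes lay between -0.02 and 0.02 in each tissue. The members called lower in breast, spleen and blood together numbered 6 with all pairs (18.2% of the members, against 0.912% of all genes) and 22 without the arrays that stood apart (66.7% against 3.14%). In whole tissue, fewer B cells and less RNA per B cell cannot be told apart.

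**Figure D2:**
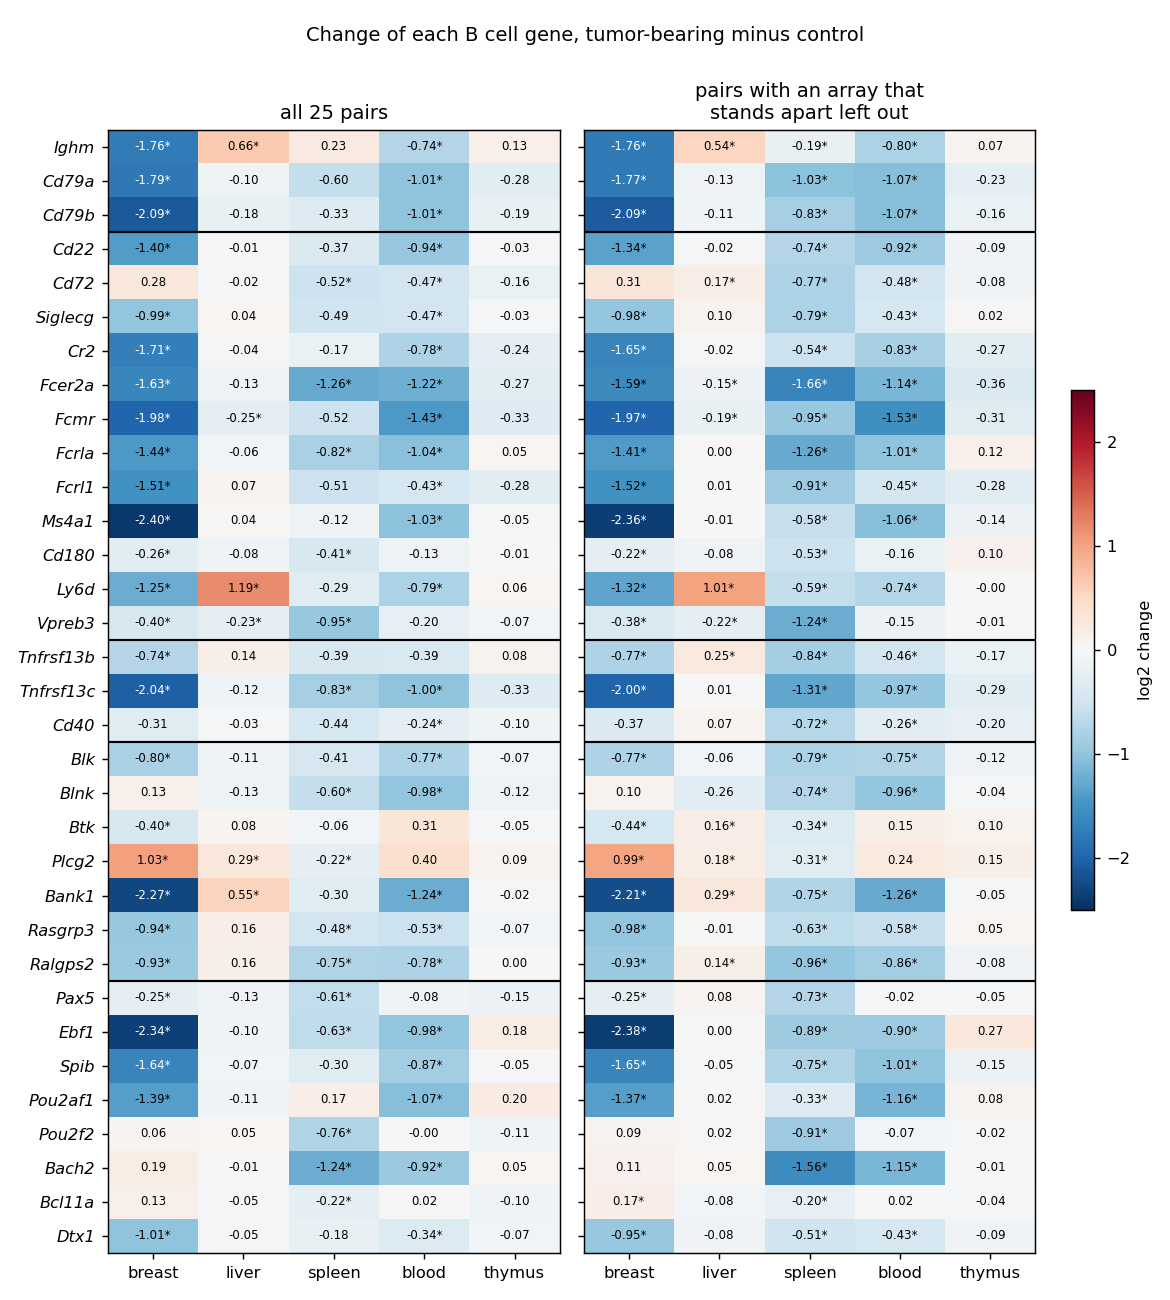
Log2 change, tumor-bearing minus control, of the 33 measured members (rows, grouped by role) in 5 tissues (columns), with all 25 pairs on the left and without the arrays that stood apart on the right; asterisks mark an adjusted p under 0.05. Spleen has 15 members called lower in the left panel and 33 in the right, while breast has 26 in both.

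Spleen showed the most uniform response. In the 23 pairs without the arrays that stood apart, the 3 receptor chains, 12 surface and receptor-associated proteins, 3 TNF receptor family members, 7 signalling genes and 8 transcription genes that were measured were each called lower. The changes ran from -1.66 for Fcer2a to -0.20 for Bcl11a, a zinc finger transcription factor also needed outside the B lineage, and -0.19 for Ighm. The call of Ighm holds for the probe set used, since other probe sets of this gene were called higher.

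Fcer2a, the low-affinity IgE receptor CD23 of follicular B cells, had a lowest, median and highest level of 8.66, 9.42 and 10.55 in tumor-bearing spleens, against 10.64, 11.15 and 11.71 in control spleens. The groups did not overlap, and Fcer2a was lower in 23 of 23 pairs (change -1.66 ± 0.10, adjusted p 7.9e-13 by limma, 3.15-fold lower). With all 25 pairs the change was -1.26 ± 0.28 (adjusted p 0.00057).

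Bach2, a repressor that holds back plasma cell differentiation, lay at 8.27, 8.98 and 10.17 in tumor-bearing spleens and at 9.47, 10.74 and 11.13 in control spleens. The ranges overlapped between 9.47 and 10.17, and Bach2 was lower in 23 of 23 pairs (change -1.56 ± 0.11, adjusted p 6.2e-12, with all pairs -1.24 ± 0.24, adjusted p 0.00011). Vpreb3, whose product assists assembly of the receptor during B cell development, lay at 7.94, 8.76 and 9.38 in tumor-bearing spleens against 9.50, 9.90 and 10.43 in control spleens, with no overlap between the groups. Its change was -1.24 ± 0.10 (adjusted p 1.3e-10) and, with all pairs, -0.95 ± 0.22 (adjusted p 0.00078).

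Tnfrsf13c, the BAFF receptor, lay at 9.67, 10.65 and 11.34 in tumor-bearing spleens against 11.31, 11.83 and 12.40 in control spleens. Only the edges of the ranges touched, and it was lower in 23 of 23 pairs (change -1.31 ± 0.10, adjusted p 2.1e-11). Fcrla, an Fc receptor-like protein found inside B cells, changed by -1.26 ± 0.09 (adjusted p 2.1e-11). With all pairs these were -0.83 ± 0.33 (adjusted p 0.047) and -0.82 ± 0.32 (adjusted p 0.041).

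The receptor chains Cd79a and Cd79b fell less than Fcer2a, Bach2, Vpreb3, Tnfrsf13c and Fcrla, but more than the median member. Cd79a lay at 10.79, 11.60 and 12.18 in tumor-bearing spleens against 12.12, 12.65 and 12.88 in control spleens, and was lower in 23 of 23 pairs (change -1.03 ± 0.09, adjusted p 2.2e-10, 2.04-fold lower). Cd79b lay at 11.41, 12.41 and 12.87 against 12.77, 13.24 and 13.47 (change -0.83 ± 0.08, adjusted p 6.3e-10). For both genes the ranges overlapped only at their edges. With all 25 pairs neither was called (Cd79a -0.60 ± 0.30, adjusted p 0.12; Cd79b -0.33 ± 0.35, adjusted p 0.48), although each was lower in 23 of 25.

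Ms4a1, which encodes the surface protein CD20, lay at 12.51, 13.07 and 13.46 in tumor-bearing spleens against 13.20, 13.63 and 13.80 in control spleens (change -0.58 ± 0.06, adjusted p 9.5e-09). Pax5, which holds cells to the B lineage, lay at 7.90, 8.73 and 9.49 against 9.14, 9.47 and 9.70 (change -0.73 ± 0.08, adjusted p 1.9e-08). Both were lower in 23 of 23 pairs, while the ranges overlapped, and for Pax5 the highest tumor-bearing spleen lay just above the control median. With all pairs Ms4a1 was not called (-0.12 ± 0.31, adjusted p 0.78) and Pax5 was (-0.61 ± 0.15, adjusted p 0.0013).

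Ighm lay at 14.02, 14.26 and 14.56 in tumor-bearing spleens against 14.23, 14.48 and 14.66 in control spleens, and was lower in 20 of 23 pairs (change -0.19 ± 0.04, adjusted p 4.2e-05). The ranges overlapped over most of their length. These values are of the probe set used. In the same fit 5 of the 11 Ighm probe sets were called higher and 3 lower, so the direction of Ighm in spleen is unsettled. With all 25 pairs its change was 0.23 ± 0.28 (adjusted p 0.55), the pairs 15 and 20, whose control arrays stood apart, having changes of 4.70 and 5.44.

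Other B cell genes moved with the members in spleen. Without the arrays that stood apart, 15 of 16 further B cell genes fell and 1 rose, and 17 of 19 further genes of the receptor pathway fell and 1 rose. Among those that fell were Cxcr5, the chemokine receptor that guides B cells into follicles (-0.88 ± 0.10), H2-Ob of the B cell antigen loading machinery (-0.91 ± 0.06) and the kinase Syk (-0.45 ± 0.03). The gene of the B cell list that rose was Cd24a, a surface protein also carried by neutrophils and erythroid cells (0.31 ± 0.04), and that of the pathway list was Ifitm1, an interferon-inducible membrane protein (1.39 ± 0.08). With all pairs 5 of 16 and 5 of 19 were called lower, and 1 of each list higher.

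Other cell types moved in spleen as well. All 13 neutrophil genes and all 9 erythroid genes measured were higher in tumor-bearing spleens, and all 13 T cell genes and 5 of 7 genes of lymphoid stroma and homing were lower, without the arrays that stood apart. With all pairs 13 neutrophil and 8 erythroid genes were higher, and 1 T cell gene and 1 stroma gene were lower. The summed intensity of the neutrophil list had a lowest, median and highest value of 82121, 115880 and 184720 in tumor-bearing spleens, against 14179, 35747 and 67006 in control spleens. For the erythroid list these were 52491, 61591 and 67047 against 15202, 36090 and 67800, and for the T cell list 5357, 7105 and 9691 against 9661, 12601 and 17395. For the members themselves the sums were 68134, 99619 and 131973 against 116663, 154191 and 174151. The 3′ to 5′ signal ratio of the array's Gapdh control, a measure of RNA integrity, averaged -0.18 ± 0.19 in tumor-bearing and -0.30 ± 0.12 in control spleens (log2, SD, n = 25 each, permutation test, adjusted p 0.0452). The part of these other cells and of RNA integrity in the members' fall was not tested.

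The sample IDs fall into an earlier series, with 10 pairs, and a later one, with 15 pairs; what the series stand for is not given in the labels. Fitted alone, the earlier series gave 32 members lower in spleen (21.3% of all genes lower) and the later series, which holds the 3 spleen arrays that stood apart, gave 2 (10.0%). The difference between the series was called for no member in spleen by limma, with 0 at an unadjusted p under 0.05 in either fit.

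Within spleen the members varied together from pair to pair, as they did in breast, blood and thymus. In those 3 tissues the median correlation between the changes of 2 members was 0.799, 0.587 and 0.384, without the arrays that stood apart. In spleen it was 0.75 over 23 pairs, where all points share the same arrays, and it was 0.023 between members and other genes. Bank1, a scaffold protein of receptor signalling, followed the rest most closely (median r 0.868) and Plcg2 least (0.245). The change of Cd79a also followed that of Cd3e, a chain of the T cell receptor complex, over the pairs (Pearson r 0.714, adjusted permutation p 0.0009; Spearman rho 0.749, adjusted p 0.00055; r 0.705 without the 2 pairs farthest from the median; 10 relations in the family). It did not follow that of S100a8, a neutrophil gene, at a called level (r -0.30, adjusted permutation p 0.273, rho -0.318). With all pairs the change of Cd79a did not follow that of Cd3e at a called level in blood (r 0.384, adjusted permutation p 0.113). Nor did it in liver or thymus (r 0.0886 and 0.174, adjusted p 0.73 and 0.423). Against S100a8 only thymus was called with all pairs (r 0.71, adjusted permutation p 0.00135, rho 0.459, adjusted p 0.0724). That relation was not called without the arrays that stood apart (r 0.327, adjusted p 0.273).

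Blood cells showed the members lower as well, with wider spread between mice. Among the 25 called lower with all pairs were all 3 measured receptor chains, 10 of 12 surface and receptor-associated proteins, 2 of 3 TNF receptor family members, 5 of 7 signalling genes and 5 of 8 transcription genes. Tnfrsf13b, the receptor TACI, joined them without the arrays that stood apart (-0.46 ± 0.14, adjusted p 0.016). The members not called in blood in either fit were Btk, Plcg2, Pax5, Pou2f2, Bcl11a, Cd180 and Vpreb3. For Bcl11a this holds for the probe set used, since 3 of its 7 probe sets were called lower in blood in both fits, with changes down to -0.64 with all pairs.

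Fcmr, the Fc receptor for IgM, had a lowest, median and highest level of 5.19, 6.07 and 8.18 in blood cells of tumor-bearing mice, against 5.80, 7.61 and 9.16 in control mice. The ranges overlapped widely, yet Fcmr was lower in 23 of 25 pairs (change -1.43 ± 0.19, adjusted p 5.7e-06). Fcer2a lay at 4.22, 4.65 and 6.33 against 4.77, 5.68 and 8.77, and was lower in 25 of 25 pairs (change -1.22 ± 0.18, adjusted p 2.5e-05). Bank1 (-1.24 ± 0.26, adjusted p 0.0014) fell by a like amount, followed by Pou2af1 (-1.07 ± 0.28, adjusted p 0.0090) and Fcrla (-1.04 ± 0.22, adjusted p 0.0013).

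Cd79a lay at 5.13, 6.58 and 9.10 in tumor-bearing blood against 5.60, 8.17 and 9.76 in control blood, with the ranges largely shared. It was lower in 21 of 25 pairs (change -1.01 ± 0.22, adjusted p 0.0020). Cd79b, at 5.12, 6.84 and 9.74 against 4.70, 8.25 and 10.43, changed by -1.01 ± 0.25 (adjusted p 0.0060).

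Ms4a1 lay at 5.43, 8.12 and 10.86 in tumor-bearing blood against 6.11, 9.47 and 11.65 in control blood (change -1.03 ± 0.26, adjusted p 0.0075). Ighm lay at 8.39, 9.66 and 12.30 against 8.52, 10.89 and 12.70 (change -0.74 ± 0.21, adjusted p 0.019). Pax5 was near the bottom of the scale in both groups, at 4.01, 4.57 and 5.09 against 4.22, 4.63 and 5.11, and was not called (change -0.08 ± 0.06, adjusted p 0.47). The ranges of all 3 genes overlapped almost completely. In the second fit the named falls in blood lay between -0.80 (Ighm) and -1.53 (Fcmr), each still called.

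The sample-ID series differed in their counts in blood. Fitted alone, the later series gave 24 members lower (5.51% of all genes lower), and the earlier series gave none (0.077% of all genes lower), where 10 members had an unadjusted p under 0.05. Cd79a changed by -1.26 in the later series and by -0.65 in the earlier (adjusted p 0.0038 and 0.75). The difference between the series was called for no member in blood, by limma on the pairs' changes, with 3 at an unadjusted p under 0.05 and 0 without the arrays that stood apart.

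In blood 9 of 13 neutrophil genes were higher and 5 of 13 T cell genes and all 6 NK cell genes were lower. The summed neutrophil intensity was 17176 at the lowest, 37702 at the median and 80318 at the highest in tumor-bearing mice, against 950, 4688 and 11221 in control mice. The part of this shift in the members' fall was not tested. Of the further receptor pathway genes 8 of 19 were higher and 1 lower. Those higher included Ifitm1 (4.18 ± 0.20), the adaptor Grb2 (0.97, adjusted p 0.00047) and the phosphatase Ptpn6 (0.88, adjusted p 0.0095), which act in many leukocytes. Of the 16 further B cell genes 6 fell, among them H2-Ob (-1.71 ± 0.28), and 1, Cd24a, rose (0.77, adjusted p 0.0029).

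**Figure D3:**
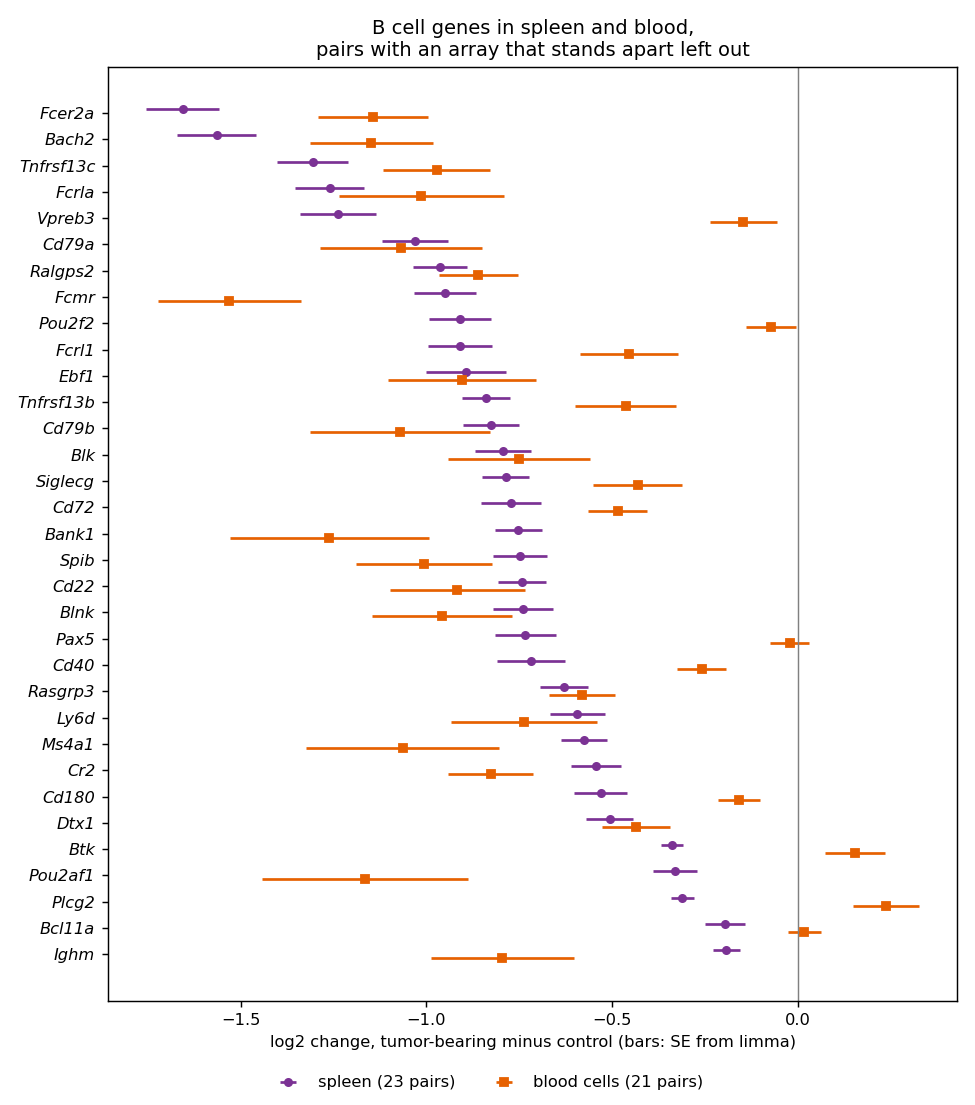
Log2 change, tumor-bearing minus control, with its SE (bars) for each measured member in spleen (circles, 23 pairs) and blood cells (squares, 21 pairs), ordered by the change in spleen, without the arrays that stood apart. Vpreb3, Pou2f2 and Pax5 lie well below 0 in spleen and near 0 in blood, while Fcmr, Bank1 and Pou2af1 lie lower in blood than in spleen.

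Pairs were linked across tissues by the same sample-ID prefix and order in both. The change in spleen could thus be set against the change in blood of the linked pair. With all 25 linked pairs, 7 members differed (2 with the higher change in spleen, where 11.2% of all genes were called, and 5 with the lower, 9.89%), which is 21.2% of the members against 21.1% of all genes. Without the arrays that stood apart, 15 differed over 19 linked pairs, 4 higher and 11 lower (18% and 15.1% of all genes), or 45.5% of the members against 33.1%. In both fits the change was lower in spleen for Pou2f2 (-0.75 ± 0.17, adjusted p 0.0014), Vpreb3 (-0.75 ± 0.21, adjusted p 0.0084), Plcg2 (-0.62 ± 0.17, adjusted p 0.0076), Pax5 (-0.52 ± 0.15, adjusted p 0.012) and Bcl11a (-0.24 ± 0.08, adjusted p 0.038). Pax5 and Vpreb3 lay below the median level of all genes in blood (5.14), where a fall could hardly show, so that their differences restate the fall in spleen. Bcl11a's difference was not called with the mean of its probe sets (-0.03, adjusted p 0.93) and was 0.39 (adjusted p 0.38) without _x_at and _s_at probe sets. The change was higher in spleen in both fits for Pou2af1 (1.24 ± 0.44, adjusted p 0.043, and 0.89 ± 0.28, adjusted p 0.016, without the arrays that stood apart) and Ighm (0.97 ± 0.34, adjusted p 0.041, and 0.63 ± 0.20, adjusted p 0.017). Without _x_at and _s_at probe sets the difference of Ighm was not called (0.71, adjusted p 0.15).

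In breast the largest falls of any tissue were measured, and they were not spread evenly over the mice. Ms4a1 had a lowest, median and highest level of 4.61, 5.08 and 11.14 in breasts of tumor-bearing mice, against 4.89, 10.01 and 11.54 in control mice. Most tumor-bearing arrays lay near the bottom of the range, while control arrays were split between the bottom and the top. The change was -2.40 ± 0.60 (adjusted p 0.0011), lower in 20 of 25 pairs. Bank1 changed by -2.27 ± 0.40 (adjusted p 1.7e-05), Cd79b by -2.09 ± 0.44 (adjusted p 0.00018) and Tnfrsf13c by -2.04 ± 0.46 (adjusted p 0.00034). Ebf1 lay at 6.23, 7.45 and 9.75 in tumor-bearing breasts against 8.31, 10.12 and 10.73 in control breasts (change -2.34 ± 0.23, adjusted p 1.3e-09).

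Cd79a lay at 4.70, 5.37 and 8.90 in tumor-bearing breasts against 4.76, 8.14 and 10.18 in control breasts (change -1.79 ± 0.41, adjusted p 0.00047, lower in 18 of 25 pairs). Cd79b lay at 4.45, 5.10 and 9.39 against 4.90, 8.56 and 10.36. Ighm lay at 7.17, 8.54 and 12.36 against 8.57, 11.31 and 12.50 (change -1.76 ± 0.35, adjusted p 0.00010). All 3 share the pattern of Ms4a1, with overlapping ranges and medians far apart. Pax5, at 4.34, 4.70 and 5.41 against 4.32, 4.95 and 5.61, was dim in both groups and changed by only -0.25 ± 0.08 (adjusted p 0.0063).

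The split of the control breasts followed the sample-ID series. In the later series Cd79a lay at 4.70, 5.10 and 7.26 in tumor-bearing breasts, against 5.27, 8.80 and 10.18 in control breasts. In the earlier series it lay at 4.79, 5.49 and 8.90 in tumor-bearing breasts, against 4.76, 5.16 and 8.43 in control breasts. Most tumor-bearing breasts were low in both series, most controls were high in the later series and low in the earlier, and a few breasts of either group were high in the earlier series. The change was -3.08 ± 0.34 (adjusted p 7.0e-07) in the later series and 0.13 (adjusted p 0.85) in the earlier, a difference of -3.21 ± 0.58 (adjusted p 0.0049). The positive sign in the earlier series rests on pair 9, with a change of 3.29, while pair 5 changed by -2.61.

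For Ms4a1 the change was -4.15 ± 0.48 in the later series and 0.22 in the earlier (difference -4.37 ± 0.91, adjusted p 0.0082), and for Cd79b -3.34 ± 0.37 and -0.23 (difference -3.11 ± 0.68, adjusted p 0.012). The difference between series was called for 23 members, each with the lower change in the later series (2.12% of all genes lower, 1.79% higher), and for 27 without the array that stood apart (3.26% and 3.19%). Fitted alone, the later series gave 27 members lower and 1 higher (28.2% and 28.0% of all genes), and the earlier series gave 1 lower and 4 higher (20.5% and 18.2%). The member that fell in the earlier series was Ebf1 (-1.91, adjusted p 0.0070), and those that rose there were Plcg2 (1.33, adjusted p 0.0019), Cd72 (0.98, adjusted p 0.011), Blnk (0.75, adjusted p 0.020) and Bach2 (0.71, adjusted p 0.034). In no other tissue was the difference between series called for any member by limma (unadjusted p under 0.05 for 2 liver, 0 spleen, 3 blood and 1 thymus members). Dropping the arrays that stood apart gave 2, 0, 0 and 18 such members, again with none called.

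**Figure D4:**
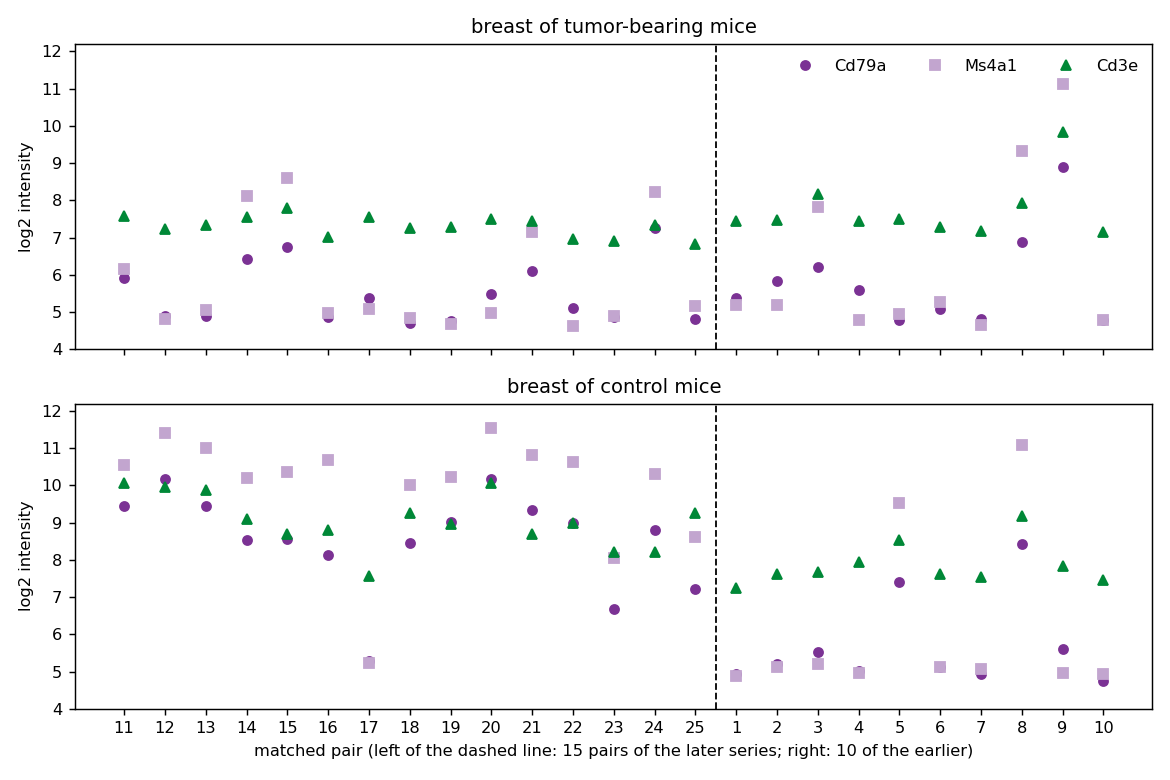
Log2 intensity of Cd79a, Ms4a1 and the T cell gene Cd3e in each breast array, tumor-bearing mice above and control mice below, by matched pair with the later series left of the dashed line. In the later series the control breast lay above its tumor-bearing partner in 14 of 15 pairs for Cd79a and in 15 of 15 for Ms4a1, and in the earlier series only a few breasts of either group are high.

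Genes of other cells moved with the members in breast. All 13 T cell genes and 6 of 7 genes of lymphoid stroma and homing were lower in tumor-bearing breasts, and all 13 and 5 of 7 differed between the series. The T cell list summed to a median of 597 in tumor-bearing and 3106 in control breasts of the later series, and to 661 and 704 in the earlier. The lymphoid stroma list summed to 576 and 7946 in the later series, and to 2931 and 890 in the earlier. Cxcl13, the chemokine that draws B cells into follicles, changed by -3.52 ± 0.37 in the later series and by -0.62 in the earlier (difference -2.91, adjusted p 0.026), and Ccr7, a homing receptor of lymphocytes, by -2.60 and 0.49 (difference -3.09, adjusted p 0.0058). Over the pairs, the change of Cd79a followed that of Cd3e within each series (r 0.857 over 15 pairs of the later series, adjusted permutation p 0.0008, rho 0.864; r 0.916 over 10 pairs of the earlier, adjusted permutation p 0.0048, rho 0.842). Without the 2 pairs farthest from the median, r was 0.721 and 0.773.

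The tissue itself also differed between the groups. All 7 adipocyte genes fell (median change -4.14) and 5 of 6 epithelial genes rose (median 1.95) in tumor-bearing breasts. None of the adipocyte genes differed between the series, nor did Ebf1 (-0.72 ± 0.45, adjusted p 0.38), which is also known from the adipocyte lineage. The Gapdh 3′ to 5′ ratio averaged 0.03 ± 0.45 (log2, SD, n = 25) in tumor-bearing breasts and 0.79 ± 0.78 (n = 25) in control breasts (permutation test, adjusted p 0.0005). In control breasts it averaged 0.59 in the later series and 1.09 in the earlier. The part of tissue makeup and RNA integrity in the members' changes was not tested.

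A minority of members did not fall in breast. Plcg2, a phospholipase also used by myeloid cells, lay at 9.72, 10.28 and 10.68 in tumor-bearing breasts against 7.98, 9.18 and 10.33 in control breasts. Every tumor-bearing breast lay above the control median, and Plcg2 was higher in 25 of 25 pairs (change 1.03 ± 0.11, adjusted p 4.6e-09). Blnk, Cd72, Bach2, Pou2f2 and Bcl11a had changes between 0.06 and 0.28 that were not called with all pairs, nor was that of Cd40 (-0.31 ± 0.18, adjusted p 0.135). Bcl11a was called higher (0.17 ± 0.06, adjusted p 0.015) without the array that stood apart. These values are of the probe set used. Of the 7 Bcl11a probe sets, 5 were called higher in breast with all pairs (changes up to 0.51) and 6 without that array. Set against blood over the linked pairs, the change was higher in breast in both fits for Bach2 (1.11 ± 0.22, adjusted p 0.00015), Blnk (1.11 ± 0.20, adjusted p 2.7e-05), Cd72 (0.75 ± 0.20, adjusted p 0.0025) and Plcg2 (0.64 ± 0.17, adjusted p 0.0022). It was lower in breast in both fits for Ebf1 (-1.37 ± 0.29, adjusted p 0.00027), Btk and Rasgrp3. In all, 4 members were higher and 6 lower (all genes 22.5% and 25.6%), and 4 and 3 over the 20 linked pairs left without the arrays that stood apart (25.6% and 28.1%). Taken in either direction, this was 30.3% of the members against 48.0% of all genes, and 21.2% against 53.6% in the second fit. Both series together thus gave a smaller share of differing members than of genes at large. The later series alone gave a larger share of members, where 23.4% of all genes were higher and 23.1% lower.

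Dtx1, a regulator of Notch signalling in marginal zone B cells, was read by 2 probe sets that were called in opposite directions in breast (-1.01 and 1.52). Its direction there is therefore unsettled.

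Of further B cell genes in breast, 11 of 16 fell and 3 rose, where 32.3% of all genes were lower and 30.0% higher. Of further receptor pathway genes 6 of 19 fell and 5 rose, near these shares of all genes. The plasma cell list split, with 5 of 9 genes higher and 4 lower. Those lower were Irf4 (-1.97), Jchain, the joining chain of secreted IgM and IgA (-1.54), Mzb1 (-1.07) and Tnfrsf17 (-0.71). Those higher were Sdc1 (2.74), Fkbp11 (1.76), Derl3 (1.58), Xbp1 (0.76) and Prdm1 (0.50), of which Sdc1 and Xbp1 are also used by epithelial cells.

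In liver most members lay near the bottom of the scale and were not called, and a few were higher in tumor-bearing mice. Only 9 of 33 members reached the median level of all genes there, against all 33 in spleen. Cd79a lay at 4.18, 4.57 and 5.32 in tumor-bearing livers against 4.11, 4.62 and 5.63 in control livers, and was not called (change -0.10 ± 0.09, adjusted p 0.56). Cd79b lay at 4.20, 5.04 and 5.64 in tumor-bearing livers against 4.58, 5.24 and 5.996 in control livers (change -0.18 ± 0.08, adjusted p 0.16), and Ms4a1 at 4.73, 5.22 and 6.15 against 4.28, 5.21 and 6.47 (change 0.04 ± 0.09, adjusted p 0.85). Pax5 lay at 4.43, 4.77 and 5.22 against 4.39, 4.73 and 8.74 (change -0.13 ± 0.16, adjusted p 0.68). The ranges of the 3 genes overlapped almost completely, and none was called.

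Ighm was the receptor gene that rose in liver. It lay at 6.68, 8.06 and 8.67 in tumor-bearing livers against 6.38, 7.31 and 7.93 in control livers, with the median tumor-bearing liver above the highest control liver, and was higher in 22 of 25 pairs (change 0.66 ± 0.10, adjusted p 2.6e-05). Ly6d, a small surface protein that marks commitment to the B lineage and is also made by epithelial cells, lay at 5.79, 6.20 and 9.85 against 3.86, 5.38 and 9.32 (change 1.19 ± 0.25, adjusted p 0.0013, higher in 24 of 25 pairs). The highest liver of each group lay far above its group's median.

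Bank1 (0.55 ± 0.16, adjusted p 0.024, higher in 24 of 25 pairs) and Plcg2 (0.29 ± 0.09, adjusted p 0.027, in 20 of 25) were also higher in liver. Fcmr (-0.25 ± 0.07, adjusted p 0.013) and Vpreb3 (-0.23 ± 0.07, adjusted p 0.035) were lower, both at dim levels. In the second fit the changes were 0.54 for Ighm, 1.01 for Ly6d, 0.29 for Bank1, 0.18 for Plcg2, -0.19 for Fcmr and -0.22 for Vpreb3, all still called. That fit added Tnfrsf13b (0.25), Cd72 (0.17), Btk (0.16) and Ralgps2 (0.14) as higher and Fcer2a (-0.15) as lower. Fitted alone, the later series called 3 members higher and 2 lower in liver (12.1% and 11.7% of all genes) and the earlier series 1 higher (0.467%).

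Plasma cell genes moved with Ighm in liver, 5 of 9 being higher in tumor-bearing mice in both fits. They were Fkbp11 (1.23 with all pairs), Jchain (0.86 ± 0.16, adjusted p 0.00039), Sdc1 (0.63), Xbp1 (0.57) and Derl3 (0.52), of which Sdc1 and Xbp1 are also made by hepatocytes. Mzb1 (-0.03, adjusted p 0.88) and Tnfrsf17 (-0.01, adjusted p 0.96) were not called. Of the neutrophil genes 12 of 13 were higher, with a summed intensity of 6231, 21399 and 49715 in tumor-bearing livers against 760, 1261 and 1867 in control livers. Of the further receptor pathway genes 5 of 19 were higher and none lower, among them Ifitm1 (1.33), Fcgr2b, the inhibitory IgG receptor (0.87), Syk (0.46) and Prkcb (0.39). Of the further B cell genes 3 of 16 were higher and 1, H2-Ob, lower (-0.60, adjusted p 0.0019). The part of myeloid cells in the changes of genes they also use, such as Plcg2, Btk and Syk, was not tested.

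In liver the median correlation between the changes of 2 members over pairs was 0.06 (0.08 without the arrays that stood apart). Only 9 of 33 members reached the median level of all genes there. Dim probe sets can hardly show a shared change, so this value does not tell whether the members moved together. Set against blood over the linked pairs, the change in liver was higher for 22 members and lower for none (7.02% and 5.26% of all genes), and higher for 26 over the 17 linked pairs left without the arrays that stood apart (12.4%). The difference was 0.91 ± 0.23 for Cd79a (adjusted p 0.0071), 1.07 ± 0.27 for Ms4a1 (adjusted p 0.0062) and 1.40 ± 0.23 for Ighm (adjusted p 8.1e-05). Cd79a and Ms4a1 lay below the median level of all genes in liver (6.55), where a fall could hardly show, so that their differences restate the fall in blood. With dim genes left out, 9 members were tested and 7 differed, each with the higher change in liver (562 of 6848 genes higher and 518 lower). In the earlier series alone none was called (0.258% of all genes higher and 0.445% lower).

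In thymus no member was called in either fit. Cd79a lay at 6.97, 7.77 and 9.09 in tumor-bearing thymuses against 5.08, 8.14 and 12.25 in control thymuses, where the extremes are control arrays that stood apart, and changed by -0.28 ± 0.25 (adjusted p 0.99). Without them its change was -0.23 ± 0.15 (adjusted p 0.60). Cd79b lay at 8.03, 9.40 and 10.25 in tumor-bearing thymuses against 5.60, 9.46 and 12.78 in control thymuses (change -0.19 ± 0.25), and Ms4a1 at 8.67, 9.28 and 10.81 against 5.94, 9.43 and 13.08 (change -0.05 ± 0.27). Pax5 lay at 5.05, 5.48 and 5.96 against 5.07, 5.47 and 7.98 (change -0.15 ± 0.12), and Ighm at 12.64, 13.41 and 14.33 against 9.23, 13.42 and 14.35 (change 0.13 ± 0.18). The medians of both groups lay close together for each of the 4 genes, and each had an adjusted p of 0.99 or above. Without the arrays that stood apart the changes of the members ran from -0.36 to 0.27, and Fcer2a had the lowest (-0.36 ± 0.13, adjusted p 0.40). Set against blood, the change in thymus was higher for 11 members and lower for none (1.23% and 4.65% of all genes), and higher for 13 and lower for none over 18 linked pairs without the arrays that stood apart (3.5% and 5.57%). Ighm (0.88 ± 0.25, adjusted p 0.033) and Fcer2a (0.96 ± 0.21, adjusted p 0.0041) were among them in both fits. These differences share the blood arrays with the other comparisons against blood.

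Ighm needs a description of its own, because 11 probe sets are annotated to it and they did not agree. The level used above comes from 1427351_s_at, the brightest over all arrays. In the probe set fits, p was adjusted over all probe sets tested, and values are without the arrays that stood apart. In spleen 5 probe sets were higher in tumor-bearing mice, with changes between 0.92 and 1.21, while 1427351_s_at (-0.19), 1427329_a_at (-0.35) and 1452535_at (-0.59) were lower and 3 dim ones were not called. The probe set 1427870_x_at averaged 12.85 in tumor-bearing spleens and 11.64 in control spleens (change 1.21 ± 0.14, adjusted p 4.4e-08), and 1427351_s_at averaged 14.27 and 14.46 (change -0.19 ± 0.04, adjusted p 4.9e-05).

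In liver 4 of the 5 that rose in spleen were also higher, by 2.49 (1425324_x_at), 1.85 (1427756_x_at), 1.70 (1425247_a_at) and 0.73 (1427870_x_at), as were 1427351_s_at (0.54) and 1427329_a_at (0.30), and the dim 1451949_at was lower (-0.10). In thymus these 4 had changes between 1.27 and 1.45, with adjusted p between 0.052 and 0.057, while 1427351_s_at changed by 0.07. With all 25 pairs 1425324_x_at was called in thymus (1.62 ± 0.28, adjusted p 0.043). In blood none of the 4 was called (changes between 0.04 and 0.14), whereas 1427351_s_at (-0.80) and 1427329_a_at (-0.78) were lower. In breast 1427351_s_at (-1.76) and 1427329_a_at (-2.21) were lower and none of the 4 was called. Which part of the heavy chain locus each probe set reads is not given in the sources used here.

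**Figure D5:**
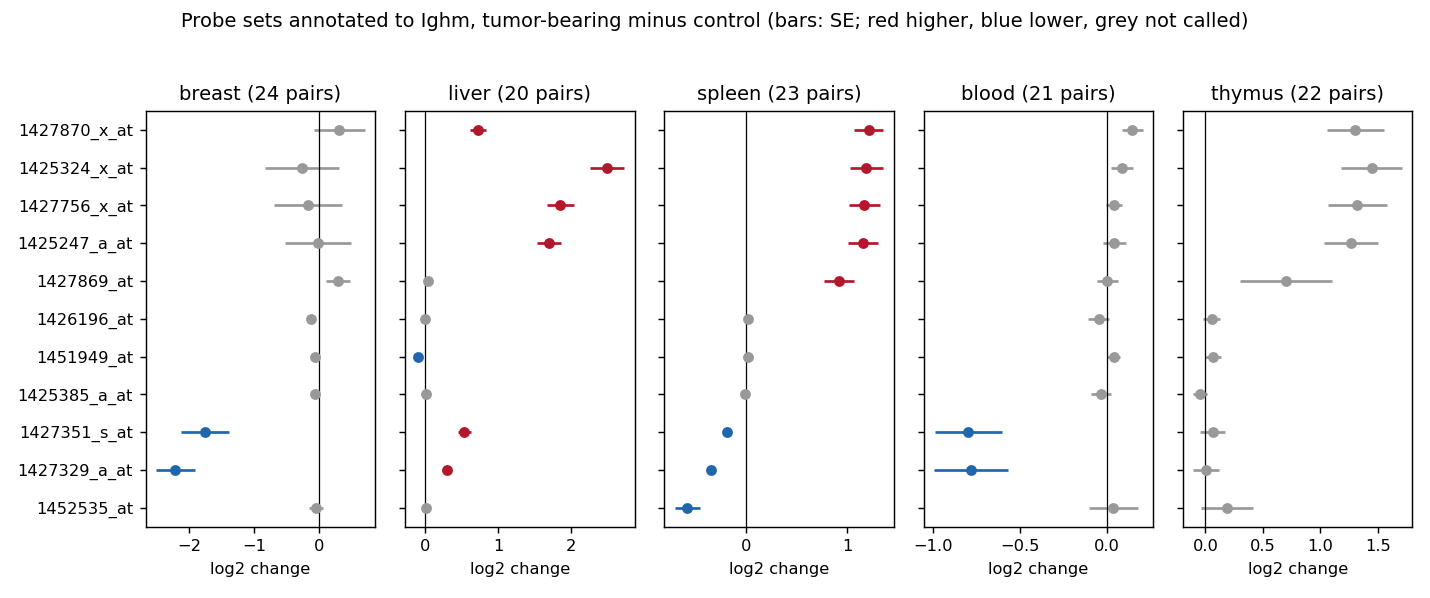
Log2 change, tumor-bearing minus control, with its SE for the 11 probe sets annotated to Ighm (rows) in 5 tissues, without the arrays that stood apart; red is called higher, blue lower and grey not called, and each panel has its own horizontal scale. The 5 probe sets called higher in spleen also lie right of 0 in thymus, where none is called, while 1427351_s_at lies at -0.19 in spleen and 0.07 in thymus.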

How the data were processed

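Total RNA was labelled as biotin cRNA and hybridised to Affymetrix whole-genome mouse arrays, per the labels' protocols. The authors deposited linear probe set intensity values that were already summarised and normalized; how this was done is not given in the sources used here. Arrays give no read depth, and the number of mice sets the precision.

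A floor was set at the 5th percentile of the deposited intensities (11.3) before taking log2. Of 45101 probe sets, 34958 had 1 symbol in GEO's platform annotation (34754 updated by Entrez number through RefSeq), and the brightest probe set on average stood for a gene. The 33 measured members had 70 probe sets, and 18 had a single one. Changes were tested by limma (version 3.58.1, under R 4.3.3) over 18193 genes, the labelled pair being a block. The same test on each pair's change gave the differences between tissues and between sample-ID series. Between tissues, pairs were linked by the same sample-ID prefix and order. Correlations used 100000 permutations, two-sided, with 10 relations adjusted together. Pairing came from the labels' named partner; the median correlation of partners' deviations from their group means was 0.082 to 0.312 by tissue, against -0.022 to 0.011 for other pairings. The test was checked on simulated data of 18193 genes, with independent normal noise and no arrays that stand apart. The changed genes were drawn from those above the tissue's median level, which 9 of 33 members reached in liver and 12 in breast. Recovery was not simulated for dimmer genes. The test recovered these shares of genes changed by 1 on the log2 scale: 98% for breast, 92% for liver, 95% for spleen, 94% for blood, 97% for thymus. Of genes changed by 0.5 it recovered 75%, 50%, 84%, 58% and 72% in these tissues.

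The members and the gene lists (further B cell, receptor pathway, plasma cell and other cell types) were chosen with earlier results of these data known. Named with full values were Cd79a, Cd79b, Ms4a1, Pax5 and Ighm in every tissue, and in each tissue the 5 called members with the largest rise and the 5 with the largest fall; other members and genes are named where a count or comparison turns on them, after their values were seen. Alternatives were the floor, quantile normalization, the mean of probe sets, leaving out probe sets ending in _x_at or _s_at, dim genes or outlying arrays, each series alone and no replicate block.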

Additional observations from a re-analysis of the deposited data

Results flagged for a closer look

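Each result here is one in which the change, tumor-bearing minus control, differed between tissues of linked mice or between sample-ID series by limma over all genes; no explanation was weighed. In breast against blood 10 of 33 members differed (30.3%, against 48.0% of all genes), among them Ighm, by -1.01, which was no longer called without the arrays that stood apart (-0.80, adjusted p 0.11). In liver against blood 22 members differed (66.7% against 12.3% of all genes), among them Cd79a by 0.91, Ms4a1 by 1.07 and Ighm by 1.40. With dim genes left out 7 of 9 differed, where 562 of 6848 genes were higher and 518 lower. In spleen against blood 7 members differed (21.2%, about the 21.1% of all genes), among them Ighm by 0.97, or 0.63 without the arrays that stood apart, and Pax5, which is dim in blood, by -0.52. In thymus against blood 11 members differed (33.3% against 5.88% of all genes), among them Ighm by 0.88. Between the later and the earlier series 23 members differed in breast (69.7% against 3.91% of all genes), among them Cd79a by -3.21 and Ms4a1 by -4.37. All comparisons against blood share the blood arrays.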

How the results depend on the processing

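The count of members called in spleen depended most on the arrays: it was 15 with all pairs and 33 both without outlying arrays and without the arrays that stood apart, 32 in the earlier series alone, 2 in the later alone and 9 with no replicate block. In breast, 10 of the 12 members tested were called with dim genes left out (3935 of 9097 genes higher and 2996 lower). The earlier series alone gave 5 there (18.2% of all genes higher and 20.5% lower). In liver, 3 of the 9 members tested were called with dim genes left out (963 of 9097 genes higher and 215 lower). Without outlying arrays and without the arrays that stood apart 11 were called (18.6% of all genes higher and 18.9% lower). The earlier series alone gave 1 in liver (0.467% and 0.055%). In blood, 0 were called by limma in the earlier series alone, with 10 at an unadjusted p under 0.05. There 1.67% of all genes were higher and 0.077% lower. For breast against blood the count was 6 under quantile normalization (4855 of 18193 genes higher and 4155 lower). It was 4 in the earlier series (5.62% of all genes higher and 11.4% lower) and 26 in the later (23.4% and 23.1%). For liver against blood it was 7 with dim genes left out and 0 in the earlier series, for spleen against blood 15 without outlying arrays or arrays that stood apart and 2 in the later series, and for thymus against blood 0 in the earlier and 23 in the later series. For the later against the earlier series in breast it was 7 of the 12 members tested with dim genes left out (222 of 9097 genes higher and 129 lower). Leaving out dim genes tests fewer genes, and a series alone has fewer pairs; other causes were not tested. Without a replicate block 12 of 165 member changes lost their call. Signs turned in spleen for Ighm (-0.19 without outlying arrays or those that stood apart, -0.16 in the earlier series) and Pou2af1 (-0.33 and -0.40), in liver for Cd72 (0.17 without either kind of array), and in blood for Bcl11a (-0.25 with the mean of probe sets, -0.49 without _x_at and _s_at probe sets). In breast Dtx1 turned to 0.26 with the mean of probe sets. In the earlier series alone, breast changes turned positive for Cd79a (0.13), Cd22 (0.14), Siglecg (0.12), Cr2 (0.17), Fcer2a (0.048), Fcmr (0.25), Fcrla (0.29), Fcrl1 (0.12), Ms4a1 (0.22), Cd180 (0.11), Tnfrsf13b (0.17), Blk (0.17), Btk (0.29), Spib (0.023) and Pou2af1 (0.92). None of these positive changes was called. For Cd79a and Ms4a1 the positive sign rests on pair 9 (3.29 and 6.17), while pair 5 fell (-2.61 and -4.60).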
